A study of Mus musculus with 28 samples.

Results

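The genes of retinoic acid metabolism and reception described here are 9 of the 53564 gene symbols in the deposited expression table, chosen by name: Cyp26a1, Cyp26b1, Dhrs3, Aldh1a2, Crabp1, Crabp2, Rara, Rarb and Rarg. The rule is a list of names with no threshold, written with earlier results of these data known, and all 9 passed the filter on low values. Retinoic acid is made from retinal by aldehyde dehydrogenases such as ALDH1A2, carried in the cell by the binding proteins CRABP1 and CRABP2, and oxidised for removal by the CYP26 enzymes. DHRS3 acts a step earlier and returns retinal to retinol. The receptors RARA, RARB and RARG bind DNA as partners of the retinoid X receptors, and several genes of the pathway, among them Cyp26a1, Dhrs3 and Rarb, are themselves known targets. In the fetal mouse ovary retinoic acid is best known as an inducer of Stra8 at the entry into meiosis.

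The study asked how telomere length bears on the making of germ cells from embryonic stem cells (ESCs), all cells being labelled as strain C57BL6. LT cells came from wild-type ESCs with long telomeres, ST cells from Terc-KO ESCs of generation 4 (G4), which lack the RNA of telomerase and have short telomeres, and RT cells from Terc-rescued ESCs. The labels do not say how the rescue was made, how many clones stood behind a line, or whether the 2 libraries of a group came from separate cultures, so that p-values measure the spread between these libraries, which may be technical. The 1dEB groups are embryoid bodies after 1 day of induction towards primordial germ cell (PGC)-like cells, with BMP4, SCF, EGF and LIF, from epiblast-like cells grown for 2 days with bFGF and activin A. E10.5PGC cells were sorted from gonads of E10.5 embryos by CD61 (integrin β3) and SSEA1. The 1dMeioLC groups (meiocyte-like cells) are PGC-like cells after 4 days of induction, or E10.5 PGCs (PGC-1dMeioLC), aggregated for 1 day with gonadal somatic cells of female Actin-GFP E12.5 mice in medium with 3 µM retinoic acid and a ROCK inhibitor, and then sorted as GFP-negative. Every 1dMeioLC group therefore received the retinoic acid and the gonadal cells together, and their parts in a change cannot be told apart. There was no culture without retinoic acid among the samples.

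The table gives transcripts per 1000000 (TPM), and 16 libraries in 8 groups of 2 were used. Values are given below as scaled TPM, in which nuclear protein-coding genes add up to 1000000 in each library. These genes held a mean of 28.1% of the deposited TPM in RT 1dEB and 61.1% in E10.5PGC, and ribosomal RNA-like genes held 39.6% in RT 1dEB against 0.957% in E10.5PGC. Read depth is unknown, because TPM keeps no depth. Replicate libraries correlated at 0.956 to 0.981 across genes. A call means an adjusted p under 0.05 from limma's moderated test across 21935 genes with Benjamini-Hochberg adjustment, and fold changes are differences in log2(scaled TPM + 1), with the standard error (SE), so that they understate the change of low genes. In bulk RNA fewer cells of a type and less RNA per cell cannot be told apart. The 8 germ cell markers listed for the check (Dppa3, Nanos3, Tfap2c, Prdm1, Prdm14, Kit, Dazl and Ddx4) summed to 6070 to 6074 scaled TPM in E10.5PGC, 1842 to 1878 in PGC-1dMeioLC, 1566 to 1642 in LT, 1104 to 1161 in RT and 317 to 331 in ST 1dMeioLC. In the 1dEB libraries the sum was 123 to 216.

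The promoters of Rarb and Cyp26a1 are shown because each holds a pair of receptor hexamers 5 bases apart, the spacing known as DR5 in retinoic acid response elements. The hexamer AGGTCA and its variants AGTTCA or GGGTCA or GGTTCA were searched as direct repeats with spacers of 1, 2 or 5 bases on both strands in RefSeq promoter windows (GRCm38.p6, 250 bases before to 50 after a start). Of the 9 genes, 8 had such windows, 14 in all, and 2 windows held a repeat, both with the spacer of 5. Over 32851 windows of the same length, 0.0974% held a repeat with that spacer, 0.588% a repeat with any of the spacers and 43.7% at least 1 hexamer. Each sequence is printed 5′ to 3′ on the strand of its gene and ends at the start site of its window. The hexamers of the repeat are in capitals. The Rarb window held 3 hexamers, of which 1 lies outside the repeat and is printed in lower case (gggtca). Its start lies inside the gene (chr14:16430839-16819156), not at the 5′ end. In Cyp26a1 the repeat lies on the opposite strand. A match of letters is a description and no measure of binding.
Rarb, chr14:16575477-16575589, minus strand: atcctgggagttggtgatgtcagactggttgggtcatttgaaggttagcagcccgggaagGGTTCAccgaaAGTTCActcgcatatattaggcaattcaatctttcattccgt
Cyp26a1, chr19:37697716-37697807, plus strand: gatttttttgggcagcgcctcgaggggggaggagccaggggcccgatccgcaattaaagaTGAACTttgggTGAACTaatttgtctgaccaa
The repeat of Rarb begins 53 bases before the start and that of Cyp26a1 32 bases before it. Both genes were at or below 5 scaled TPM in every library made before the meiotic culture and at 20 or more in every library made after it, as described next.

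**Figure D1:**
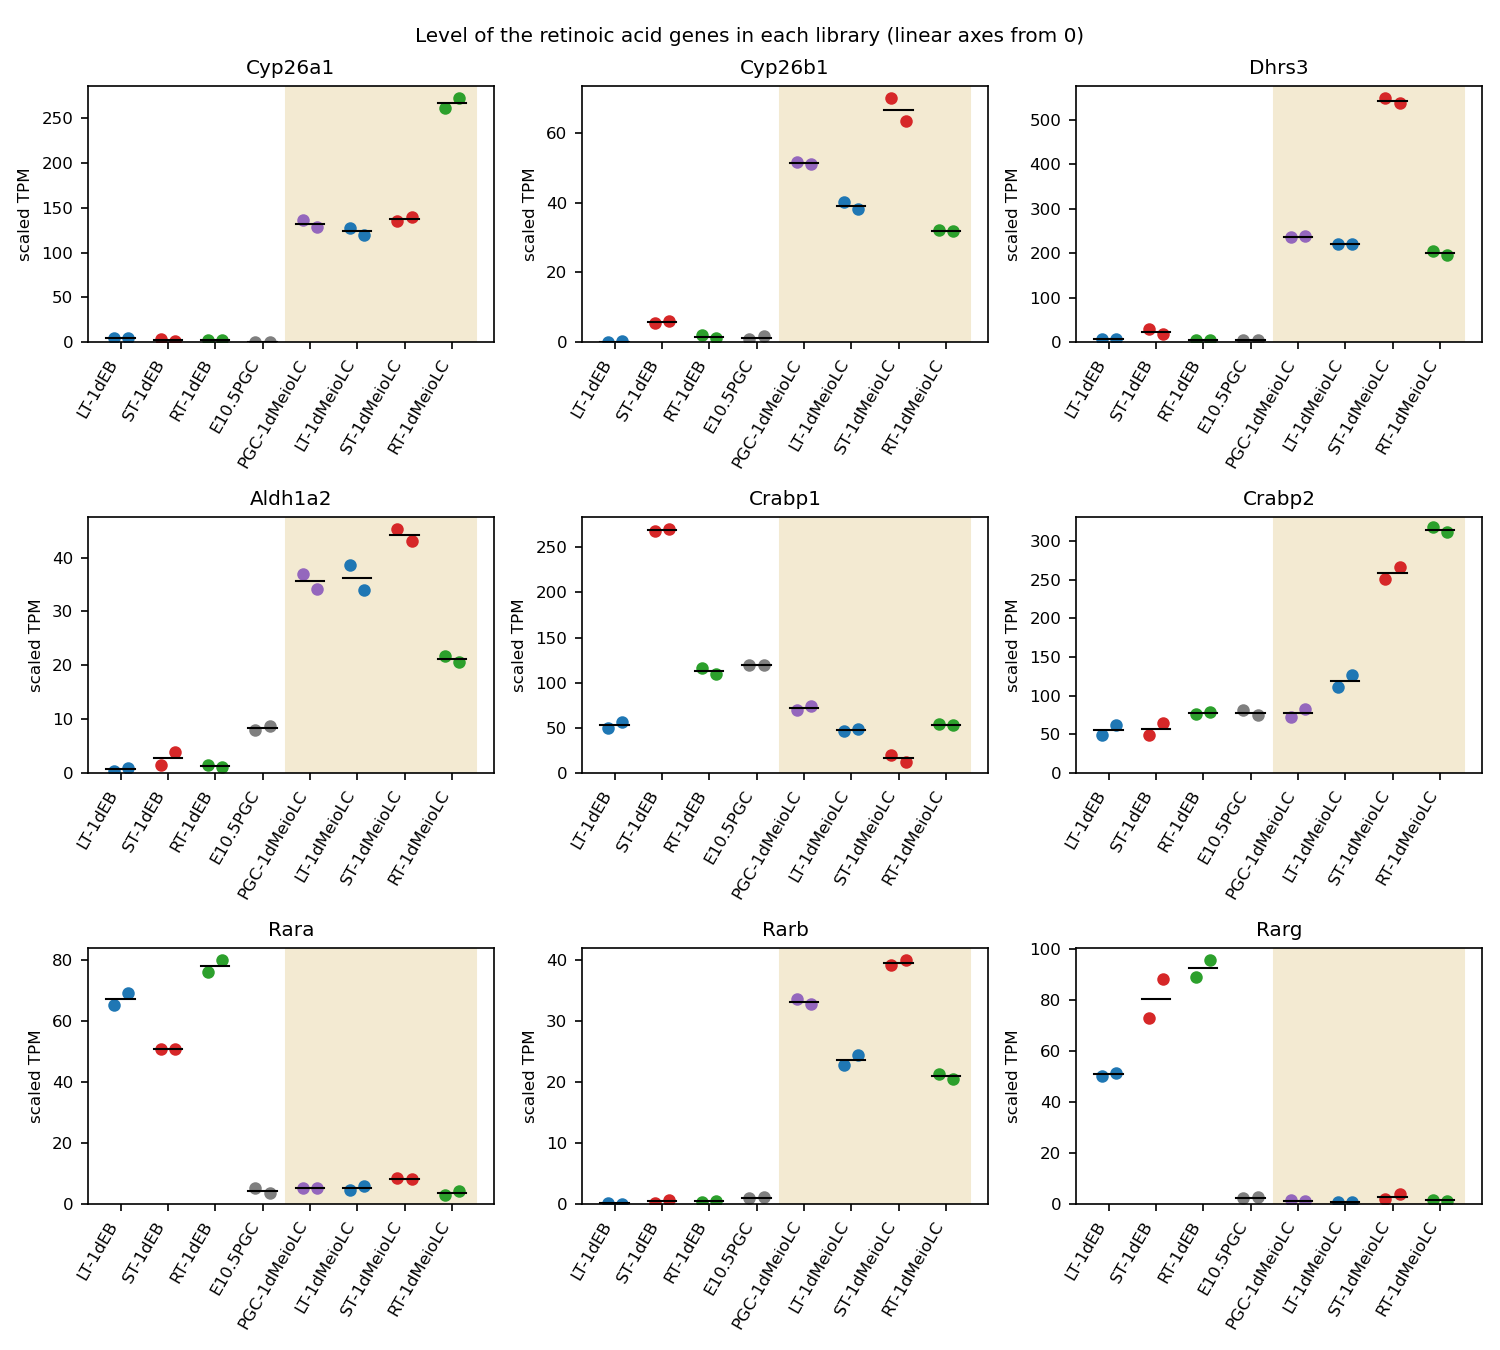
Each panel plots the level of 1 gene in scaled TPM (linear axis from 0) in the 8 groups, with a point for each library, a line for the group mean and shading for the groups cultured with retinoic acid and gonadal cells. Cyp26a1, Cyp26b1, Dhrs3, Aldh1a2 and Rarb were higher in every shaded library than in every unshaded one, whereas Rara and Rarg were high in the 1dEB groups and low in E10.5PGC and all shaded groups.

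The genes of the enzymes that clear retinoic acid were low before the meiotic culture and rose in every comparison after it. Cyp26a1 (chr19:37697798-37701536 on mm10), which encodes the oxidase most closely tied to retinoic acid dose, stood at 0.493 and 0 scaled TPM in the E10.5PGC libraries and at 136 and 128 in PGC-1dMeioLC. It was at 4.84 and 4.97 in LT, 3.24 and 0.629 in ST and 2.36 and 2.15 in RT 1dEB. In 1dMeioLC it was at 128 and 119 in LT, 136 and 139 in ST and 261 and 272 in RT. No cultured library overlapped an uncultured one, and the RT libraries were the highest. The rise from E10.5PGC was 6.77 (SE 0.34, adjusted p 6.3e-08, limma), which ranked 4 from the highest of the 21935 genes tested. From 1dEB the rise was 4.40 in LT, 5.72 in ST and 6.36 in RT (SE 0.34 each). In the order of group means, ST (137) and PGC-1dMeioLC (132) overlapped, as did RT 1dEB (2.25) and ST 1dEB (1.93).

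Cyp26b1 (chr6:84571414-84593908), the enzyme known for keeping retinoic acid away from germ cells in the fetal testis, followed a different order. Its levels were 0.816 and 1.76 scaled TPM in E10.5PGC, 0 and 0.173 in LT 1dEB, 1.99 and 1.19 in RT 1dEB and 5.36 and 5.94 in ST 1dEB. After the culture they were 51.7 and 51.0 in PGC-1dMeioLC, 40.3 and 38.0 in LT, 69.9 and 63.4 in ST and 32.1 and 31.8 in RT 1dMeioLC. Among the cultured groups ST was highest and RT lowest with no overlap between neighbours, whereas for Cyp26a1 RT was highest. The rise was 4.55 (SE 0.19, adjusted p 2.1e-08, limma) from E10.5PGC, and 5.21, 3.35 and 3.69 from 1dEB in LT, ST and RT.

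Dhrs3 (chr4:144892827-144928209), the retinal reductase, reached the highest level of the 9 genes per unit length of transcript. It was at 5.37 and 5.06 scaled TPM in E10.5PGC, 7.59 and 7.93 in LT 1dEB, 29.0 and 17.5 in ST 1dEB and 4.82 and 5.64 in RT 1dEB. In 1dMeioLC it was at 236 and 239 from PGCs, 220 and 220 in LT, 548 and 537 in ST and 204 and 196 in RT. ST stood above the other lines at both stages, and the 2 ST 1dEB libraries differed from each other. The rise was 5.26 (SE 0.17, adjusted p 2.3e-09, limma) from E10.5PGC, and 4.66, 4.53 and 5.01 from 1dEB in LT, ST and RT.

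Aldh1a2 (chr9:71215789-71296243), which makes retinoic acid, was at 8.01 and 8.78 scaled TPM in E10.5PGC. It was at 0.446 and 1.02 in LT, 1.56 and 3.94 in ST and 1.54 and 1.12 in RT 1dEB. In 1dMeioLC it was at 37.0 and 34.2 from PGCs, 38.5 and 33.9 in LT, 45.3 and 43.1 in ST and 21.7 and 20.6 in RT. The LT and PGC-derived libraries overlapped, ST lay above and RT below them. The rise was 1.96 (SE 0.26, adjusted p 8.9e-05, limma) from E10.5PGC and 4.44, 3.67 and 3.25 from 1dEB in LT, ST and RT.

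The binding proteins moved apart from each other. Crabp1 (chr9:54764748-54773110) was present in every group, at 120 and 120 scaled TPM in E10.5PGC, 50.3 and 56.1 in LT, 269 and 271 in ST and 116 and 109 in RT 1dEB. In 1dMeioLC it was at 69.7 and 73.8 from PGCs, 46.5 and 48.9 in LT, 20.3 and 12.3 in ST and 54.2 and 52.8 in RT. The ST line thus held the highest group at 1dEB and the lowest at 1dMeioLC. Crabp1 fell by 0.74 (SE 0.16, adjusted p 0.0029, limma) from E10.5PGC, by 4.01 in ST and by 1.06 in RT. In LT the difference was -0.15 (adjusted p 0.43). On deposited TPM without rescaling the LT value turned to 0.47 (adjusted p 0.021) and the RT value to 0.04 (adjusted p 0.87), whereas the fall in ST kept its call.

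Crabp2 (chr3:87948666-87953376), which hands retinoic acid to the receptors, was at 81.5 and 74.9 scaled TPM in E10.5PGC and at 73.0 and 83.1 in PGC-1dMeioLC, with overlap. It was at 48.9 and 61.8 in LT, 48.7 and 65.0 in ST and 76.4 and 78.3 in RT 1dEB. In 1dMeioLC it was at 111 and 126 in LT, 251 and 267 in ST and 317 and 311 in RT. All 3 ESC-derived groups stood above the PGC-derived one, RT highest. The rise from 1dEB was 1.09 in LT, 2.18 in ST and 2.01 in RT (SE 0.14 each, adjusted p 4.6e-05, 2.4e-07 and 3.6e-07, limma), while the difference from E10.5PGC was -0.00 (adjusted p 1).

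The 3 receptors differed in their pattern over the groups. Rara (chr11:98927818-98974942) was at 65.3 and 69.3 scaled TPM in LT, 50.8 and 50.8 in ST and 76.3 and 80.2 in RT 1dEB. It was at 5.16 and 3.70 in E10.5PGC, and in 1dMeioLC at 5.24 and 5.32 from PGCs, 4.62 and 6.03 in LT, 8.54 and 8.21 in ST and 3.05 and 4.24 in RT. The 3 1dEB groups stood above all others, and E10.5PGC overlapped RT 1dMeioLC. Rara fell from 1dEB by 3.44 in LT, 2.46 in ST and 4.10 in RT (SE 0.16, adjusted p 1.5e-08, 2.2e-07 and 4.0e-09, limma), and differed by 0.22 (adjusted p 0.26) between PGC-1dMeioLC and E10.5PGC.

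Rarg (chr15:102234938-102257517) was at 50.2 and 51.5 scaled TPM in LT, 72.7 and 88.0 in ST and 89.0 and 95.6 in RT 1dEB. It was at 2.31 and 2.77 in E10.5PGC, and in 1dMeioLC at 1.39 and 1.09 from PGCs, 0.618 and 0.756 in LT, 1.82 and 3.90 in ST and 1.61 and 1.37 in RT. As with Rara, the 1dEB groups stood far above the rest. Rarg fell by 4.94, 4.44 and 5.23 from 1dEB in LT, ST and RT (SE 0.22 each). Its fall from E10.5PGC was 0.66 (adjusted p 0.025, limma), and this call was lost without E10.5PGC replicate 2 (adjusted p 0.13) or PGC-1dMeioLC replicate 2 (adjusted p 0.12).

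Rarb (chr14:16430839-16819156), the receptor gene with the DR5 promoter shown above, ran the other way. It was at 0.192 and 0 scaled TPM in LT, 0.252 and 0.636 in ST and 0.397 and 0.483 in RT 1dEB, and at 0.954 and 1.15 in E10.5PGC. In 1dMeioLC it was at 33.5 and 32.7 from PGCs, 22.9 and 24.4 in LT, 39.1 and 40.0 in ST and 21.3 and 20.5 in RT. Every cultured library lay far above every uncultured one, so that Rarb passed the filter on low values through the cultured groups. Its fold changes are therefore given as a description, 4.06 (SE 0.14) from E10.5PGC and 4.49, 4.82 and 3.93 from 1dEB in LT, ST and RT. In PGC-1dMeioLC, Rarb was thus the receptor gene with the highest level in scaled TPM, and in the 1dEB groups the lowest.

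Counted together, 5 of the 9 genes rose and 2 fell in PGC-1dMeioLC against E10.5PGC, where 38.9% of all genes tested were called higher and 15% lower. Rarb, which passed the filter through the cultured groups, is counted among those that rose here and in each line. From 1dEB to 1dMeioLC, 6 rose and 2 fell in LT, 6 rose and 3 fell in ST, and 6 rose and 3 fell in RT. Over all genes 27.6% were called higher and 37.4% lower in LT, 25.5% and 37.5% in ST and 23.5% and 45.1% in RT. On deposited TPM these shares were 40.4% and 24% in LT, 33.3% and 29.6% in ST and 43.7% and 22% in RT. The median fold change of the 9 genes was 1.96 from E10.5PGC, where that of all genes was 0.28, and 4.40, 3.35 and 3.25 in LT, ST and RT, where those of all genes were -0.17, -0.21 and -0.46. Apart from the Rarg call from E10.5PGC, all calls of the 9 genes in these 4 comparisons kept their direction and their side of the threshold when each library of the comparison was left out in turn. The 1dEB and 1dMeioLC groups are also separated by the later days of induction, which the libraries used here do not cover.

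**Figure D2:**
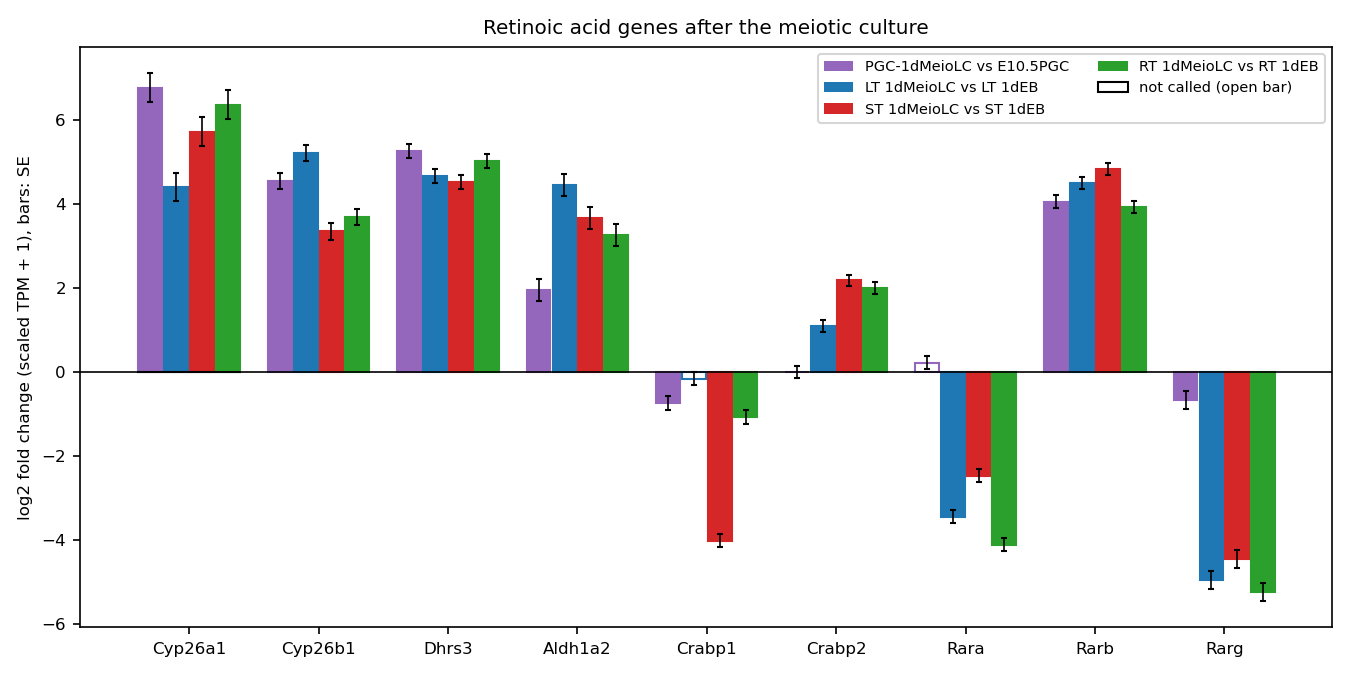
Bars give the log2 fold change of each gene in scaled TPM + 1 for PGC-1dMeioLC against E10.5PGC (purple) and for 1dMeioLC against 1dEB in LT (blue), ST (red) and RT (green), with the SE, and open bars were not called. Cyp26a1, Cyp26b1, Dhrs3, Aldh1a2 and Rarb rose in all 4, from 1.96 to 6.77, while Rara and Rarg fell by 2.46 to 5.23 in the 3 ESC-derived comparisons.

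Other retinoid genes were counted from lists written by name. Of 20 genes of retinoid transport, metabolism and co-regulation, 18 passed the filter (not Bco1 and Adh7). Stra6, Lrat and Cyp26c1 passed it through the cultured groups, their means being below 1 deposited TPM in every uncultured group. Their part in the counts and medians below is therefore a description. Over all genes tested, 38.9% were called higher and 15% lower from E10.5PGC to PGC-1dMeioLC. In that comparison 15 of the 18 rose and 0 fell, with a median of 1.41. The largest of these rises were those of Rdh10, which oxidises retinol to retinal (2.71, SE 0.13), and Aldh1a3, a second retinal dehydrogenase gene (2.44, SE 0.21; adjusted p 5.4e-08 and 3.3e-06, limma). From 1dEB to 1dMeioLC 10 rose and 6 fell in LT, and 10 rose and 5 fell in both ST and RT. The shares of all genes called higher and lower were 27.6% and 37.4% in LT, 25.5% and 37.5% in ST and 23.5% and 45.1% in RT. Adh1, an alcohol dehydrogenase gene, rose by 4.37 in LT, 5.08 in ST and 2.15 in RT, and Aldh1a1 by 3.39, 3.50 and 2.86 in LT, ST and RT. Rxrg, a retinoid X receptor gene, fell by 3.29, 3.29 and 2.92. It passed the filter through the 1dEB groups, so that its fall is a description. On deposited TPM 14 rose and 1 fell from E10.5PGC, and 11, 11 and 12 rose and 4, 5 and 5 fell in LT, ST and RT. There 34.7% of all genes were called higher and 18.9% lower from E10.5PGC. In the lines these shares were 40.4% and 24% in LT, 33.3% and 29.6% in ST and 43.7% and 22% in RT.

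Of 12 genes listed as responsive to retinoic acid, all 12 rose in PGC-1dMeioLC against E10.5PGC (median 2.45). Over all genes 38.9% were called higher and 15% lower there. Stra8, the gatekeeper of meiotic entry, led the 12 at 9.10 (SE 0.19, adjusted p 1.8e-10, limma). Tgm2, a transglutaminase gene, followed at 3.87, and Rec8, a meiotic cohesin gene, at 2.97. From 1dEB 11 rose and 1 fell in LT, 11 rose and 0 fell in ST, and 9 rose and 0 fell in RT. Stra8 rose by 6.66, 6.58 and 5.83 in LT, ST and RT, and Tgm2 by 3.99, 3.82 and 3.07. On deposited TPM all 12 rose from E10.5PGC, where 34.7% of all genes were called higher and 18.9% lower, and 11 rose and 0 fell in each line. The shares of all genes in the lines are those given above for the 9 genes. Genes of the 12 that passed the filter through the cultured groups include Hoxa3 and Meiosin. Both were below 1 deposited TPM in every uncultured group, so that their rise is given as a description.

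Markers of the gonadal somatic cells rose in the same comparisons, although the sort was for GFP-negative cells. The 8 markers (Foxl2, Wnt4, Wt1, Nr5a1, Gata4, Nr2f2, Lhx9 and Amhr2) summed to 41.7 to 44.1 scaled TPM in E10.5PGC, 16.3 to 19.2 in LT, 39.2 to 46.5 in ST and 32.2 to 33.1 in RT 1dEB. In 1dMeioLC the sum was 543 to 554 from PGCs, 430 to 439 in LT, 639 to 657 in ST and 335 to 337 in RT, and all 8 were at 1 or more deposited TPM in every 1dMeioLC library. All 8 rose from E10.5PGC, in LT and in ST, and 7 of 8 in RT (8 of 8 on deposited TPM). Over all genes 38.9% were called higher and 15% lower from E10.5PGC. In the lines these shares were 27.6% and 37.4% in LT, 25.5% and 37.5% in ST and 23.5% and 45.1% in RT. On deposited TPM those in RT were 43.7% and 22%. Fibroblast and stroma markers summed to 12.42 to 12.54 in E10.5PGC and 506 to 707 in the 1dMeioLC libraries. In 1dEB they already summed to 51.3 to 58.0 in LT, 1134 to 1161 in ST and 644 to 657 in RT. Their sum in 1dMeioLC was thus higher in LT (512 to 530) but lower in ST (626 to 635) and RT (506 to 514). All 8 were called higher in LT between the stages, while 3 were higher and 4 lower in ST and 6 higher and 1 lower in RT.

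Across the 4 cultured groups, Cyp26b1, Rarb and Dhrs3 had the order of the gonadal sum, with ST highest, then PGC-derived, LT and RT. Set against that sum, Cyp26b1 was 9.02% in LT, 9.37% in PGC-derived, 9.52% in RT and 10.3% in ST cells, and Rarb was 5.44% to 6.23%. Aldh1a2 was 6.29% to 8.34%. Dhrs3 ranged from 43.3% in PGC-derived to 83.7% in ST, Crabp1 from 2.51% in ST to 15.9% in RT, Cyp26a1 from 21.2% in ST to 79.5% in RT and Crabp2 from 14.3% in PGC-derived to 93.5% in RT. Rara, which did not rise in the culture, was 0.964% to 1.29% and Rarg 0.158% to 0.444%. Over the 4 groups the shares of Cyp26b1, Rarb, Aldh1a2 and Rara thus varied by a smaller ratio than those of the other 5 genes. The part of gonadal cells in these levels was not tested.

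**Figure D3:**
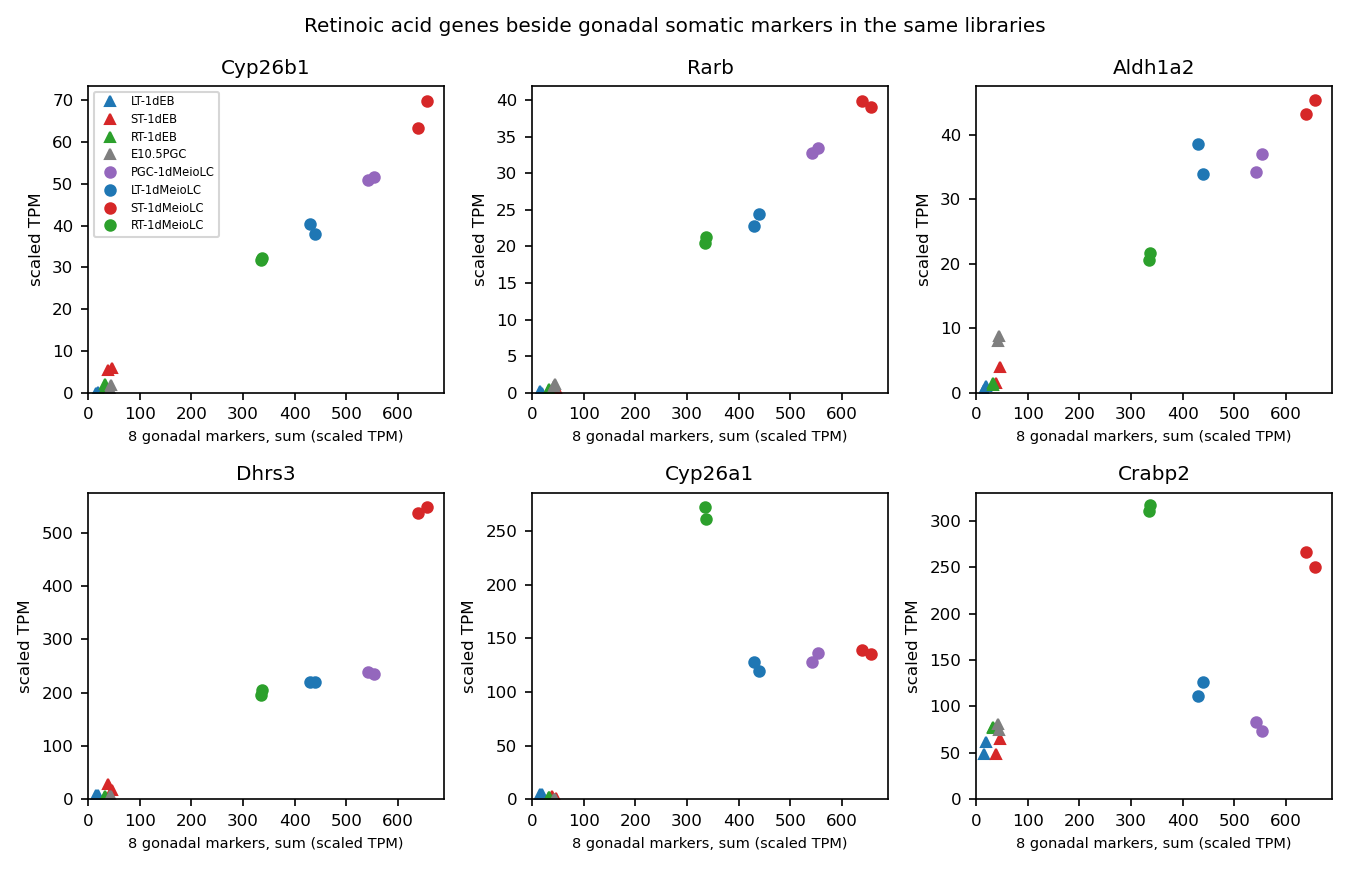
Each panel plots the level of 1 gene (scaled TPM) against the summed level of the 8 gonadal somatic markers (scaled TPM) in each of the 16 libraries, with circles for 1dMeioLC and triangles for the other groups. Cyp26b1 and Rarb rose with the marker sum over the cultured libraries, whereas Cyp26a1 and Crabp2 were highest in RT 1dMeioLC, where the sum was lowest at 335 to 337.

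The lines differed before any retinoic acid was added. In ST against LT 1dEB, 5 of the 9 genes were higher and 1 lower, where 22% of all genes were called higher and 18.7% lower (26.7% and 11.6% on deposited TPM). Cyp26b1 was higher by 2.62 (SE 0.19, adjusted p 2.3e-06), Crabp1 by 2.32 (SE 0.16, adjusted p 1.4e-06), Dhrs3 by 1.43 (SE 0.17, adjusted p 5.9e-05, limma), Aldh1a2 by 1.06 and Rarg by 0.64, while Cyp26a1 was lower by a difference of -1.17. The first 3 of these kept their calls without any single library. The Rarg call was lost without any of the 4 libraries (adjusted p 0.051 to 0.19), with no filter (0.059) and with a pseudocount of 0.1 (0.11), that of Cyp26a1 with that pseudocount (0.11) and without LT replicate 1 or 2 (0.067 and 0.073) or ST replicate 2 (0.077), and that of Aldh1a2 without LT replicate 1 (0.070). Rarb differed by 0.39 (adjusted p 0.053) and was called without LT replicate 1 or ST replicate 1 (0.037 and 0.011). In the same libraries the 8 stroma markers summed to 51.3 to 58.0 scaled TPM in LT, 1134 to 1161 in ST and 644 to 657 in RT, and all 8 were called higher in ST than in LT. Their part in the result was not tested. Of the 18 other retinoid genes 6 were higher and 4 lower in ST (8 and 3 on deposited TPM), led by Aldh1a3 at 2.68, Rdh10 at 1.31 and Rxra at 1.22. Of the 12 responsive genes 7 were higher and 2 lower (8 and 2 on deposited TPM), led by Cdx1 at 1.49, Hoxb1 at 1.26 and Meis2 at 1.25.

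The rescued line lay between the other lines for Cyp26b1 and Crabp1 at 1dEB. In RT against LT 1dEB, 4 genes were higher and 1 lower, where 23.5% of all genes were called higher and 14.4% lower (10.7% and 30.9% on deposited TPM). Cyp26b1 was higher by 1.24 (SE 0.19, adjusted p 0.00065) and Crabp1 by 1.07 (SE 0.16, adjusted p 0.00052, limma). The calls of Dhrs3 (-0.49), Crabp2 (0.49) and Rarg (0.85) were weaker. That of Dhrs3 was lost without any of the 4 libraries (adjusted p 0.068 to 0.19) and with no filter (0.051), that of Crabp2 without LT replicate 1 or RT replicate 1 or 2 (0.067 to 0.15), and that of Rarg without LT replicate 1 or RT replicate 2 (0.053 and 0.065), and those of Crabp2 and Rarg were also lost on deposited TPM.

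In RT against ST 1dEB, 2 genes were higher and 3 lower, where 18.6% of all genes were called higher and 17% lower (5.14% and 44.6% on deposited TPM). Dhrs3 was lower (-1.92, SE 0.17, adjusted p 1.4e-05), as were Cyp26b1 (-1.38, SE 0.19, adjusted p 0.00038) and Crabp1 (-1.25, SE 0.16, adjusted p 0.00022, limma). The higher calls, of Rara (0.61) and Crabp2 (0.45), turned sign on deposited TPM. That of Rara was lost without RT replicate 2 (adjusted p 0.063) and that of Crabp2 without ST replicate 1 or RT replicate 1 or 2 (0.089 to 0.21). Cyp26a1, which differed by 0.31 (adjusted p 0.52), was called higher at 1.00 without ST replicate 1 (adjusted p 0.0042).

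**Figure D4:**
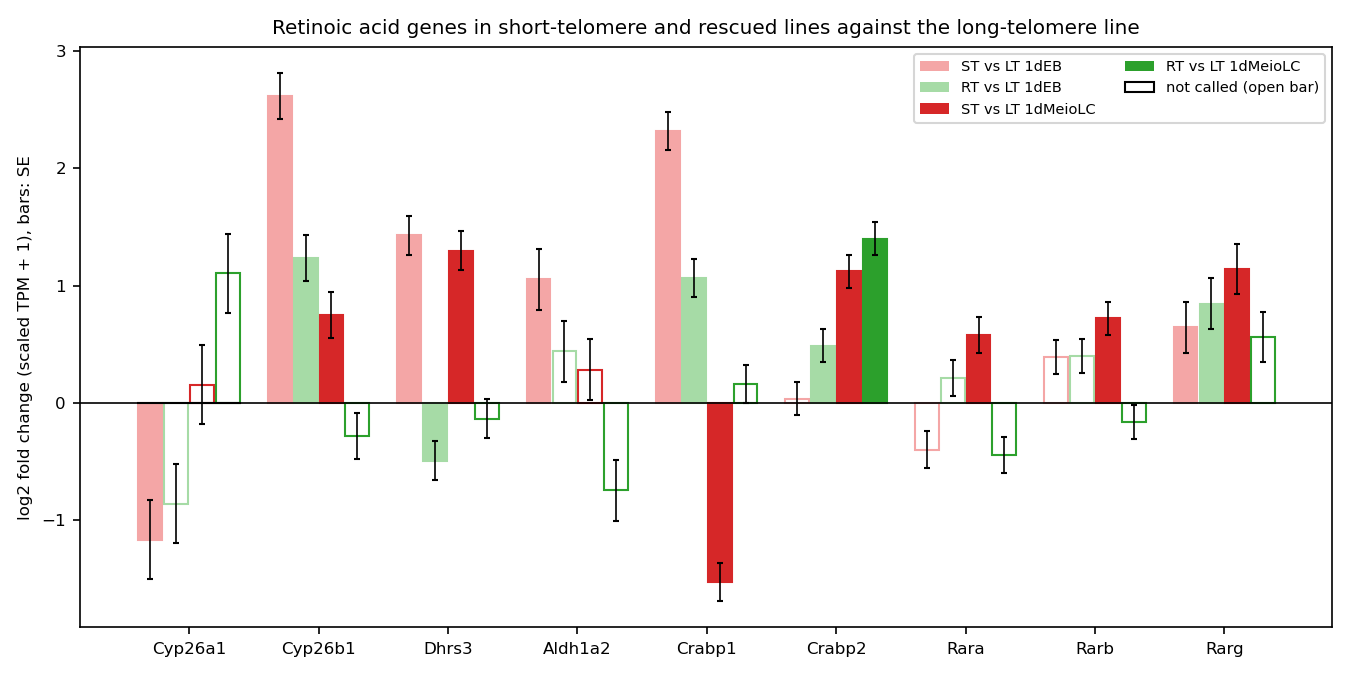
Bars give the log2 fold change of each gene in scaled TPM + 1 for ST (red) and RT (green) against LT, pale for 1dEB and dark for 1dMeioLC, with the SE, and open bars were not called. Crabp1 in ST was higher by 2.32 at 1dEB and lower at 1dMeioLC (-1.53), and Crabp2 was higher in both ST (1.12) and RT (1.40) at 1dMeioLC.

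After the culture, the lines again differed. In ST against LT 1dMeioLC, 6 genes were higher and 1 lower, where 20.1% of all genes were called higher and 13.7% lower. Dhrs3 was higher by 1.30 (SE 0.17, adjusted p 0.00027), Rarg by 1.14, Crabp2 by 1.12 (SE 0.14, adjusted p 0.00022), Cyp26b1 by 0.75, Rarb by 0.72 and Rara by 0.58, and Crabp1 was lower (-1.53, SE 0.16, adjusted p 8.8e-05, limma). Cyp26a1 (0.15) and Aldh1a2 (0.28) were not called. The Cyp26b1 call was lost without LT replicate 2 (adjusted p 0.076) or ST replicate 1 (0.077), and that of Rara without LT replicate 1 or ST replicate 1 or 2 (0.051 to 0.12) and in a fit of the 1dMeioLC libraries alone (0.071). With a pseudocount of 0.1 the calls of Cyp26b1 and Rarb were lost (0.23 and 0.25). Of the responsive genes 7 were higher and 2 lower, with Hoxb1 at 2.46, Cdx1 at 1.59 and Stra8 at -1.27. Of the 18 other retinoid genes 6 were higher and 1 lower, with Rbp4 at -1.78 and Stra6, the retinol importer gene, at 0.83. In ST the germ cell marker sum was lower and the gonadal sum higher than in LT, as given above, and 4 of 8 gonadal markers were called higher and 0 lower.

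In RT against ST 1dMeioLC, 1 gene was higher and 5 lower, where 10.4% of all genes were called higher and 24.2% lower. Crabp1 was higher by 1.69 (SE 0.16, adjusted p 5.8e-05), and Dhrs3 (-1.44), Cyp26b1 (-1.04), Aldh1a2 (-1.03), Rara (-1.03) and Rarb (-0.89) were lower (adjusted p 0.00016 to 0.012, limma). The Aldh1a2 call was lost without ST replicate 1 or RT replicate 2 (adjusted p 0.058 in both), and those of Cyp26b1, Aldh1a2 and Rarb with a pseudocount of 0.1 (0.096, 0.066 and 0.16). Of the gonadal markers 0 were called higher and 6 of 8 lower in RT (5 of 8 on deposited TPM). Stra8 was higher by 1.16 and Adh1 lower (-1.60).

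RT and LT 1dMeioLC differed in few of these genes. Crabp2 was higher in RT by 1.40 (SE 0.14, adjusted p 0.00018, limma) and was the 1 gene called, where 5.75% of all genes were called higher and 10.7% lower. Cyp26a1 was higher by 1.11 (SE 0.34) at an adjusted p of 0.0502. That error is shared by all 8 groups and takes in the spread of the near-zero ST 1dEB and E10.5PGC libraries. In a fit of the 8 1dMeioLC libraries alone, chosen after seeing the data, Cyp26a1 was called higher in RT than in LT (adjusted p 0.00077) and than in ST (0.95, adjusted p 0.00070, against 0.052 in the fit of all libraries). On deposited TPM both were called (0.0094 and 0.0060). In that fit Aldh1a2 (-0.75, adjusted p 0.0082), Cyp26b1 (-0.28, adjusted p 0.040) and Dhrs3 (-0.14, adjusted p 0.036) were called lower in RT than in LT. Without RT replicate 2 in the fit of all libraries, Rara was also called (-0.63, adjusted p 0.0499). Among responsive genes 3 were higher and 1 lower, with Hoxb1 at 2.98 and Cdx1 at 1.17, and among the other retinoid genes 1 was higher and 6 lower, with Aldh1a3 at -1.04, Adh1 at -0.89 and Nrip1, a co-regulator gene, at -0.76.

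Against PGC-1dMeioLC, 3 of the 9 genes were called in LT and 5 each in ST and RT. In LT, Crabp2 was higher (0.60) and Crabp1 (-0.58) and Rarb (-0.47) lower, where 8.34% of all genes were called higher and 13.8% lower (13.4% and 8.25% on deposited TPM). Each of these 3 calls was lost without at least 1 library, Crabp1 and Rarb losing theirs without any of the 4 (adjusted p 0.085 to 0.16) and Crabp2 without PGC-1dMeioLC replicate 1 or LT replicate 2 (0.087 and 0.10). That of Crabp1 was also lost on deposited TPM (0.084) and in the fit of the 1dMeioLC libraries alone (0.15), and that of Rarb with no filter (0.061) and with a pseudocount of 0.1 (0.51). In ST, Crabp2 (1.72, adjusted p 8.0e-06), Dhrs3 (1.19, adjusted p 0.00031, limma), Rarg (0.73) and Rara (0.58) were higher and Crabp1 lower (-2.11, adjusted p 5.8e-06), where 20.3% of all genes were called higher and 20.2% lower. The Rara call was lost without PGC-1dMeioLC replicate 1 or 2 or ST replicate 1 (0.051 to 0.061) and that of Rarg without replicate 2 of either group (0.11 and 0.14), and both in the fit of the 1dMeioLC libraries alone (0.062 and 0.10). In that fit Cyp26b1 (0.37, adjusted p 0.0081), Rarb (0.25, 0.013) and Aldh1a2 (0.31, 0.036, limma) were called higher in ST. Cyp26b1 was called lower in LT there (-0.38, adjusted p 0.015). On deposited TPM Cyp26b1 (0.42, adjusted p 0.031) and Rarb (0.30, adjusted p 0.028, limma) were called higher in ST.

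In RT, Crabp2 (2.00, adjusted p 4.4e-06) and Cyp26a1 (1.01) were higher and Cyp26b1 (-0.67), Rarb (-0.64, adjusted p 0.0065, limma) and Rara (-0.45) lower than in PGC-1dMeioLC, where 10.4% of all genes were called higher and 24.1% lower (14.4% and 17% on deposited TPM). The calls of Cyp26a1 and Cyp26b1 were lost without any of the 4 libraries (adjusted p 0.080 to 0.14) and that of Rara without PGC-1dMeioLC replicate 1 or 2 or RT replicate 1 (0.13 to 0.30). With a pseudocount of 0.1 the calls of Cyp26a1, Cyp26b1 and Rarb were lost (0.35, 0.28 and 0.31), with no filter those of Cyp26a1 and Rara (0.071 and 0.076), and on deposited TPM that of Rara (0.18). Of the 8 gonadal markers 1 was called higher and 5 lower in RT, and of the 8 germ cell markers 0 and 7 (on deposited TPM 1 and 4, and 1 and 5). Their part in the result was not tested. In the fit of the 1dMeioLC libraries alone the Rara call was lost (0.13), and Aldh1a2 (-0.72, adjusted p 0.0038) and Dhrs3 (-0.25, adjusted p 0.0036) were called lower. Aldh1a2 was also called lower on deposited TPM (-0.55, adjusted p 0.044, limma). These 3 comparisons share the PGC-1dMeioLC libraries. Crabp2 was higher in all 3 lines, by 0.60, 1.72 and 2.00 in LT, ST and RT.

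The change from 1dEB to 1dMeioLC itself was compared between lines, and the calls among the 9 genes were near the share of all genes. In ST minus LT, 4 of the 9 differences were called, 2 positive and 2 negative, where 37.7% of all genes were called. Of the genes called in ST minus LT, 50.1% were positive, and on deposited TPM 31.7%. The differences were -3.85 for Crabp1 (SE 0.23, adjusted p 1.2e-06), -1.87 for Cyp26b1 (SE 0.28, adjusted p 0.00047), 1.09 for Crabp2 (SE 0.20, adjusted p 0.0016) and 0.98 for Rara (SE 0.22, adjusted p 0.0056, limma). Cyp26b1 had mean levels of 5.65 scaled TPM in ST and 0.0867 in LT 1dEB, and 66.7 and 39.2 in ST and LT 1dMeioLC. In RT minus ST, 3 were called, 1 positive and 2 negative, where 34.5% of all genes were called. Of the genes called in RT minus ST, 36.1% were positive, and on deposited TPM 81.9%. The differences were 2.94 for Crabp1 (SE 0.23, adjusted p 1.4e-05), -1.64 for Rara (SE 0.22, adjusted p 0.00035) and -0.90 for Rarb (SE 0.20, adjusted p 0.0072, limma), the last lost with a pseudocount of 0.1 (0.27). As Rarb passed the filter through the cultured groups, its value is given as a description. The differences for Cyp26a1 (1.32, adjusted p 0.052, limma, in ST minus LT), Dhrs3 and Aldh1a2 hung on the 2 unlike ST 1dEB libraries. Without ST 1dEB replicate 1, ST minus LT was 2.01 for Cyp26a1 and moved from -0.77 to -1.25 for Aldh1a2. Without replicate 2, RT minus ST moved from 0.49 to 0.83 for Dhrs3 and from -0.41 to -0.89 for Aldh1a2. ST minus LT then moved from -0.13 to -0.48 for Dhrs3. Rarg hung on ST 1dMeioLC replicate 1. Without it ST minus LT moved from 0.50 to 0.90 and RT minus ST from -0.78 to -1.18.

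Over the 16 libraries, genes of similar pattern were named by Pearson's r of log2(scaled TPM + 1) among 10985 genes, as a description only, since all libraries share the split between cultured and uncultured groups. Nearest to Cyp26a1 were Stra8 (0.979), Ndufa4l2 (0.974) and Cox4i2 (0.973). Nearest to Cyp26b1 were Gata6 (0.993), Wnt4 (0.992) and Tmem176b (0.990), of which Wnt4 is also on the list of gonadal markers. Rarb was nearest to Nfia (0.993), Zim1 (0.993) and Pde1a (0.991), Dhrs3 to Rnf13, Cyp1b1 and Zfpm2 (0.988 to 0.992) and Aldh1a2 to Acat1, Cltrn and Twf1 (0.989 to 0.991). The genes nearest to Crabp2 were Crygc (0.964), Platr3 (0.954) and Dnajb13 (0.940), and those nearest to Crabp1 were Stk17b (0.945), Slc23a2 (0.919) and Dok5 (0.877). Rara was nearest to Prrc2a, Chd8 and Chd4 (0.992 to 0.994) and Rarg to Rab1b, Sec61a1 and Rplp0 (0.992 to 0.993).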

How the data were processed

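Total RNA was sequenced after preparation with a NEBNext Ultra RNA kit, per the labels' protocols. Per the submitters' processing notes, HISAT2, Bowtie2, RSEM, DESeq2 and R 3.4.2 were used with the build mm10. The sources used here do not say what each did. TPM (transcripts per 1000000) for 53564 symbols was deposited by the authors as a single table. Of its columns 16 matched 1 sample each by name, and 12, which share 6 names, were not used. The PGC-like cells of day 4 are not analysed here.

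TPM was rescaled so that 21771 nuclear protein-coding genes (GENCODE M21) total 1000000 per library, because ribosomal RNA-like and mitochondrial shares differed between groups. Genes with at least 1 deposited TPM in at least 2 libraries were kept (21935). The log2(scaled TPM + 1) values went into a limma fit (version 3.58.1, R 4.3.3) of 8 group means with a trend, 8 residual and 2.17 prior degrees of freedom and no replicate block. Tests were 2-sided, and p-values were Benjamini-Hochberg adjusted over all genes within each of 15 comparisons, with a threshold of 0.05. The test was checked on simulated data.

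Named are the 9 genes, up to 3 called genes of largest change per list and comparison, and the 3 genes of nearest pattern, without Rik symbols or those of Gm and a number. Some list genes that this rule names are not reported here. The genes with a DR5 repeat, and those named for the groups through which they passed the filter, lie outside it. Both were named after their values were seen. The members and lists were chosen with earlier results of these data known. Alternatives were deposited TPM, a pseudocount of 0.1, no filter, a replicate block, each library left out and, added after seeing the data, the 1dMeioLC libraries alone. Meiosin was matched to Gm4969 by a RefSeq synonym.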

Additional observations from a re-analysis of the deposited data

Results flagged for a closer look

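For 7 results the change from 1dEB to 1dMeioLC differed between lines by limma's test of the difference (log2 scale, adjusted p over 21935 genes, 2 libraries in each of the 4 groups, all 8 groups in the fit). Between ST and LT, the differences were -3.85 for Crabp1 (adjusted p 1.2e-06), -1.87 for Cyp26b1 (adjusted p 0.00047), 1.09 for Crabp2 (adjusted p 0.0016) and 0.98 for Rara (adjusted p 0.0056). Between RT and ST they were 2.94 for Crabp1 (adjusted p 1.4e-05), -1.64 for Rara (adjusted p 0.00035) and -0.90 for Rarb (adjusted p 0.0072). The Rarb call was lost with a pseudocount of 0.1 (adjusted p 0.27). Rarb passed the filter through the cultured groups, so that its value is a description. It was at 0.444 scaled TPM in ST and 0.440 in RT 1dEB, and differed by -0.89 in RT against ST 1dMeioLC. Stroma markers moved with the same contrasts. In ST minus LT 8 of 8 were called negative (median -3.67, all genes 0.005), and 50.1% of all genes called were positive. In RT minus ST 5 of 8 were called positive (median 0.69, all genes -0.18), and 36.1% of all genes called were positive. On deposited TPM 8 of 8 were called positive in RT minus ST. There the median of all genes was 0.37, and 34.6% of all genes were called positive. The part of stroma markers in these results was not tested.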

How the results depend on the processing

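All values are limma's log2 fold changes or counts of called genes, and the cause of each change was not tested. Deposited TPM moved the median of all genes from 0.04 to -0.38 in RT against ST 1dEB, from 0.10 to -0.17 in RT against LT 1dEB, from 0.28 to 0.13 from E10.5PGC, from -0.17 to 0.19 in LT and from -0.46 to 0.30 in RT between stages. On deposited TPM, RT against ST 1dEB reversed for Cyp26a1 (-0.11), Crabp2 (-0.19), Rara (-0.029), Rarb (-0.086) and Rarg (-0.43), RT against LT 1dEB for Rara (-0.23), LT against PGC-1dMeioLC for Cyp26a1 (0.063) and Dhrs3 (0.050), Crabp1 between stages in LT (0.47) and RT (0.036), and the stage difference RT minus ST for Crabp2 (0.57) and Rarg (0.012). Of these reversed values, the 0.47 of Crabp1 and the 0.57 of Crabp2 were called. The called members became 3 in RT against LT 1dMeioLC and 6 in the stage difference RT minus ST. With a pseudocount of 0.1, Rara reversed in LT against PGC-1dMeioLC (-0.000994) and Rarb in the stage difference ST minus LT (-0.83). Called members were then 3 in RT against ST, 2 in RT against LT and 2 in RT against PGC-1dMeioLC. With no filter, RT against PGC-1dMeioLC had 3. The 1dMeioLC libraries alone gave 5 in RT against LT.

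Same-numbered libraries deviated with correlations of -0.03 to 0.03, so that the numbers were not taken to pair them. With a replicate block, called members in RT against LT 1dMeioLC were 2, Cyp26a1 being called there (adjusted p 0.042), in RT against ST (0.041) and in the stage difference ST minus LT (0.041), while Rara in RT against PGC-1dMeioLC was lost (0.057). The block changed no other call of the 9 genes.

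With each library left out in turn, called members ranged from 2 to 4 in RT against LT 1dEB, 3 to 6 in RT against ST 1dEB, 1 to 2 in RT against LT 1dMeioLC, 3 to 6 in the stage difference RT minus ST, and 0 to 1, 3 to 4 and 2 to 3 in LT, ST and RT against PGC-1dMeioLC. All genes called ranged from 2207 to 3115 in LT against PGC-1dMeioLC (4861 with all libraries), 1441 to 2249 in RT against LT 1dMeioLC (3619) and 4876 to 5929 in ST against LT 1dMeioLC (7434). Signs turned, with no turned value called, for Crabp2 from E10.5PGC (-0.10 to 0.088) and in ST against LT 1dEB (-0.17 to 0.24), for Cyp26a1 (-0.38 to 1.00) and Rarb (-0.18 to 0.20) in RT against ST 1dEB, for Aldh1a2 (-0.066 to 0.11) and Rara (-0.16 to 0.16) in LT against PGC-1dMeioLC, for Dhrs3 in the stage difference ST minus LT (-0.48 to 0.22), and in RT minus ST for Cyp26a1 (-0.045 to 1.33), Aldh1a2 (-0.89 to 0.061) and Crabp2 (-0.38 to 0.032). With 2 libraries a group, leaving out 1 assumes that the lone library varies like the other groups. TPM gives no depth, so no detection limit can be set for genes listed at 0.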

Other observations

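The DR5 repeat shown for Rarb and Cyp26a1 was found in promoter windows of 31 genes, of which 8 passed the filter. From E10.5PGC to PGC-1dMeioLC, 4 of the 8 rose and 2 fell, where 38.9% of all genes were called higher and 15% lower. The repeat was picked for Cyp26a1 and Rarb, and both are among the 4 that rose. Rarb also passed the filter through the cultured groups. The count is therefore a description and no test of the repeat. Besides Cyp26a1 and Rarb, Tnfsf13b, a cytokine gene of B cell survival, rose by 2.68 (SE 0.13, adjusted p 5.8e-08, limma) and Blvrb, a biliverdin reductase gene, by 2.42 (SE 0.16, adjusted p 5.3e-07), whereas Ppbp, a platelet chemokine gene, fell by 2.61 (SE 0.28, adjusted p 1.7e-05) and Hbb-y, an embryonic globin gene, by 0.99 (SE 0.33, adjusted p 0.028). Gm14133 (0.73) and Syndig1 (-0.14) were not called. These genes were named after their values were seen.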
